A study of Mus musculus with 12 samples.

Results

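The 8 genes described here encode the engine of the G1 phase of the cell cycle: the D cyclins Ccnd1, Ccnd2 and Ccnd3, their kinases Cdk4 and Cdk6, the E cyclins Ccne1 and Ccne2, and the E cyclins' kinase Cdk2. They were taken by symbol from the count tables, which hold 24421 genes, and all 8 were present. All 8 also passed the filter on low counts, which left 12878 genes for testing. RNA came from B220+ splenocytes of 12 mice aged 4 to 5 weeks, 3 mice in each genotype. The EuMyc Max KO mice carry the EuMyc transgene and a conditional deletion of Max. The EuMyc mice carry the transgene with Max intact, the Max KO mice carry the conditional deletion without the transgene, and the WT mice carry intact Max and no transgene. EuMyc places Myc under the immunoglobulin heavy chain enhancer, so it is driven in cells of the B lineage, and the series describes these cells as premalignant. The driver of the Max deletion, its completeness and whether the WT mice carry that driver were not given in the sources used here. B220 is carried by B cells of many stages and by plasmacytoid dendritic cells, so the sorted cells can differ in stage between groups.

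In a resting B cell the RB protein holds E2F factors inactive. Mitogens raise D cyclins, which bind CDK4 or CDK6 and start the phosphorylation of RB, and E2F then induces the E cyclins, which bind CDK2 and complete it. In mouse B cells, Ccnd3 is required for the expansion of pre-B cells and Ccnd2 is the D cyclin induced in mature B cells by antigen receptor signals. MYC, paired with MAX, binds E-boxes, of which CACGTG is the canonical form, and Cdk4 is a textbook target of MYC.

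The promoters of the D cyclin kinases are shown here. In EuMyc against WT the fold was 3.61 for Cdk4 and 1.63 for Cdk6. RefSeq promoter sequences (GRCm38.p6, the assembly of mm10) were found for 5 of the 8 genes: Ccnd3, Cdk4, Cdk6, Ccne1 and Cdk2. The stretch for Cdk4 is chr10:127063285-127063533 and that for Cdk6 is chr5:3343643-3343731, both on the plus strand and both ending before the first annotated exon in the window. Capitals mark CACGTG, which reads the same on both strands.
Cdk4: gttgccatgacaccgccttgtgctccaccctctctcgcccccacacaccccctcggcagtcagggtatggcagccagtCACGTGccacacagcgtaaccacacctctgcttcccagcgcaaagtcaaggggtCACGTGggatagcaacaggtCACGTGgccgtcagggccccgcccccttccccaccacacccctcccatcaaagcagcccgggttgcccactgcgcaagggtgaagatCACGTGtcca
Cdk6: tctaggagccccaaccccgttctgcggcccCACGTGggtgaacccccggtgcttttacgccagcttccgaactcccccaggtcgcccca
The Cdk4 promoter held 4 copies of CACGTG within 250 bases before its start, with first bases 172, 118, 98 and 11 bases before it. Cdk6 held 1 copy, 220 bases before its RefSeq start. That window (chr5:3343643-3343892) lies inside the gene as GENCODE vM21 annotates it (chr5:3341485-3531008), not upstream of it. At least 1 copy was found in 6.02% of 32851 promoter windows of that length, and 4 or more copies in 7 windows (0.0213%). The windows of Ccnd3 (2 start sites), Ccne1 and Cdk2 held no CACGTG. Of 3 spellings of the E2F site searched on both strands (TTTCGCGC, TTTGGCGC and TTTCCCGC), Cdk2 held TTTCCCGC, 140 bases before its start, and the windows of the other 4 genes held none. Any of the 3 was present in 1.53% of the windows. These matches describe the letters of the windows and are not measured binding. The genes whose windows held no CACGTG rose in EuMyc against WT by folds of 4.05 (Ccnd3), 5.57 (Ccne1) and 1.93 (Cdk2). The part of these sites in the fold changes was not tested.

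The libraries held 14973332 to 21671601 reads in genes. Levels are given in CPM, a gene's reads relative to the scaled total of its library, or in CPM per kb of exon where different genes are compared. Max, the targeted gene, was at 102 to 108 CPM in EuMyc Max KO, against 126 to 130 CPM in EuMyc, and at 99.8 to 102 CPM in Max KO, against 108 to 139 CPM in WT. Counts per gene cannot show a missing exon, so these levels do not measure the deletion. Myc was at 487 to 565 CPM in EuMyc Max KO, 975 to 1049 CPM in EuMyc, 119.8 to 136 CPM in Max KO and 96.0 to 115 CPM in WT. The 7 markers listed as B lineage were Cd79a, Cd79b, Ms4a1, Pax5, Ptprc, Cd22 and Blk, and were read in every group. They summed to 6445 to 7912 CPM in EuMyc Max KO and 3530.3 to 4261 in EuMyc. The sums were 7937 to 8808 CPM in Max KO and 9599.7 to 10406 in WT. Of these genes, Ptprc is also expressed by other blood cells, so the sum is not specific to B cells. The Ptprc mean was 1776 CPM in EuMyc Max KO, 580.5 in EuMyc, 2162 in Max KO and 2096 in WT.

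Markers of B cell stage and of other cells also differed between the groups. The 3 mature B markers Cr2, Fcer2a and Cxcr5 summed to 1836 to 2220.4 CPM in EuMyc Max KO, 98.8 to 172 in EuMyc, 2506 to 3558 in Max KO and 2087 to 2497 in WT. The 7 pro-B and pre-B markers (among them Rag1, Vpreb1 and Igll1) summed to 72.7 to 109.6 CPM in EuMyc Max KO, 579 to 659 in EuMyc, 62.1 to 89.8 in Max KO and 80.1 to 89.3 in WT. The 5 erythroid markers summed to 915 to 5199 CPM in EuMyc Max KO, 306 to 393 in EuMyc, 141 to 418 in Max KO and 63.0 to 282 in WT. The 6 monocyte and macrophage markers summed to 1343 to 2397 CPM in EuMyc Max KO, 329.7 to 428 in EuMyc, 1407 to 1883 in Max KO and 874 to 1049.8 in WT. The 4 markers of plasmacytoid dendritic cells summed to 97.7 to 156 CPM in EuMyc Max KO, 37.2 to 46.7 in EuMyc, 178 to 316 in Max KO and 119 to 192 in WT, and the 4 plasma cell markers to 415 to 859 CPM in EuMyc Max KO, 140.5 to 299 in EuMyc, 212 to 332 in Max KO and 685 to 1384 in WT. The 6 T cell markers summed to 54.7 to 74.0 CPM in EuMyc Max KO, 7.34 to 10.9 in EuMyc, 46.3 to 63.5 in Max KO and 32.0 to 49.9 in WT. All 6 were called lower in EuMyc against WT and higher in EuMyc Max KO against EuMyc, the directions of Ccnd2. All 3 mature B and all 4 plasmacytoid dendritic markers had these calls too. Most B lineage, plasma cell, NK cell, and monocyte and macrophage markers had them as well. Pro-B and pre-B, erythroid and neutrophil markers did not. Of all genes, 34.9% were called lower in EuMyc against WT and 37.6% higher in EuMyc Max KO against EuMyc. The 4 NK cell markers summed to 19.1 to 28.8 CPM in EuMyc Max KO, 2.22 to 4.60 in EuMyc, 20.4 to 27.3 in Max KO and 11.7 to 19.4 in WT. The 4 neutrophil markers summed to 10.6 to 119 CPM in EuMyc Max KO, 4.07 to 7.30 in EuMyc, 6.61 to 66.4 in Max KO and 2.32 to 8.42 in WT. No marker of these lists was at 0 in a whole group. Their part in the results below was not tested, and in bulk RNA more cells of a type and more RNA per cell cannot be told apart.

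With the transgene and intact Max, 7 of the 8 genes rose and Ccnd2 fell. The D cyclins thus parted: Ccnd3 rose by 2.02 on the log2 scale, beside 1.85 for its kinase Cdk4, while Ccnd2 fell by 1.06. Across all genes tested, 71.6% were called in EuMyc against WT, 36.7% higher and 34.9% lower, so a call by itself is common in this comparison. The median log2 fold change was 1.83 over the 8 genes and 0.01 over all genes tested. Changes over 2-fold were found for 6 of the 8 and for 30.9% of all genes. In mice labelled as lacking Max as well, 6 of the 8 fell in EuMyc Max KO against EuMyc and Ccnd2 rose, with 73.7% of all genes called, 36.1% lower and 37.6% higher. Changes over 2-fold were found for 6 of the 8 there too, and for 32.4% of all genes. In cells without the transgene the loss of Max went with smaller changes: Ccnd2 and Ccne2 rose and Cdk4 and Cdk2 fell, 4 of 8, with 15.0% of all genes called (7.27% higher and 7.74% lower). With library totals alone as scaling those calls split into 1130 higher and 719 lower, against 936 and 997 with the scaling used here. The split leaned the other way with RLE size factors (849 higher and 1177 lower) and with DESeq2 (1064 higher and 1437 lower). The change without Max differed between transgenic and other cells (the interaction, EuMyc Max KO minus EuMyc less Max KO minus WT) for 7 of the 8 genes, Ccnd2 being higher and 6 lower, with 55.7% of all genes called, 27.8% higher and 27.9% lower. All 8 genes had groups without overlap in EuMyc against WT, 7 in EuMyc Max KO against EuMyc and 6 in Max KO against WT, against 77.4%, 75.9% and 38.1% of all genes in that order. Calls rest on the quasi-likelihood test of edgeR, at a Benjamini-Hochberg adjusted p below 0.05. Comparisons that share a group, such as the 2 that involve WT, share its 3 libraries.

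**Figure D1:**
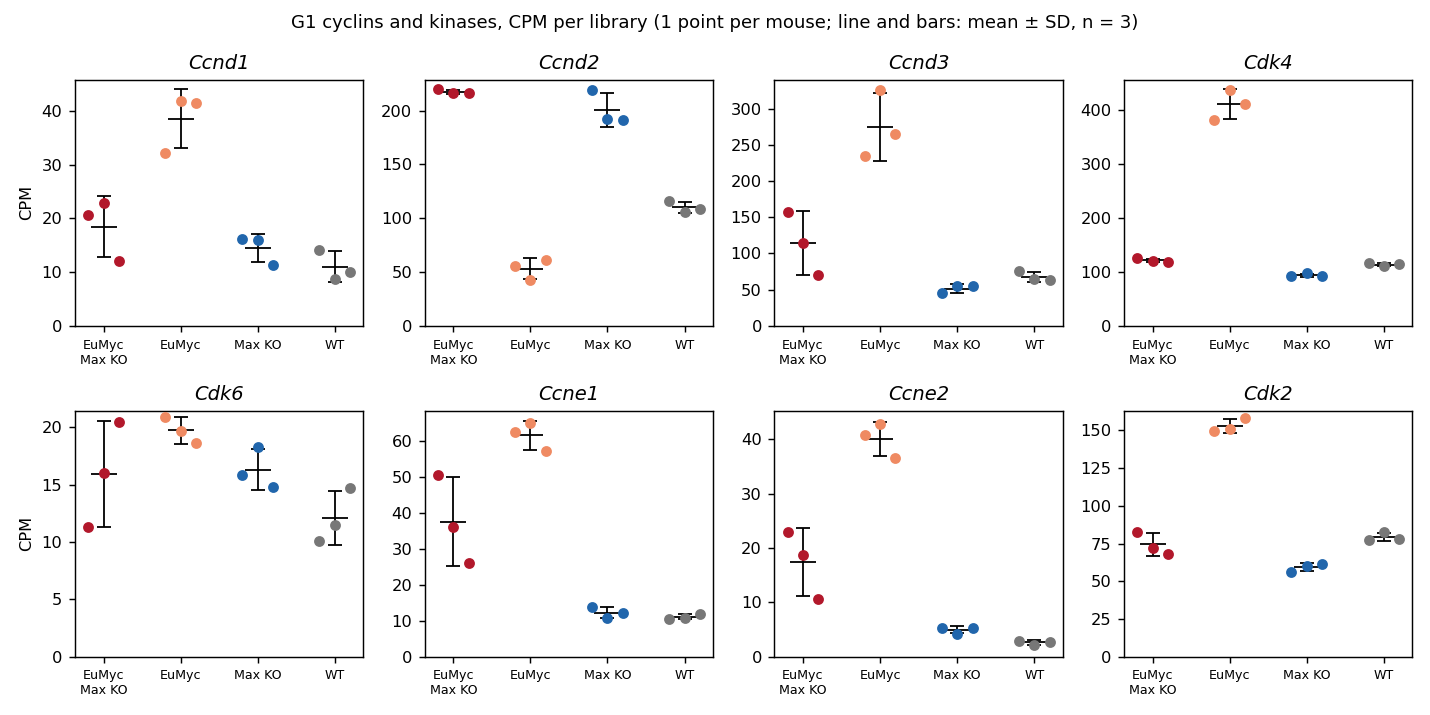
Level of each gene in CPM (vertical axes, from 0) in the 3 libraries of each genotype (horizontal axes); points are mice and black lines are mean ± SD. Ccnd2 is lowest in EuMyc at 42.6 to 61.3 CPM, whereas Ccnd3, Cdk4, Ccne1, Ccne2 and Cdk2 are highest there.

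Among the D cyclins, Ccnd2 (chr6:127125162-127152193, minus strand) had the pattern opposite to the rest. It was read at 219.8, 216 and 216 CPM in EuMyc Max KO, 55.3, 42.6 and 61.3 in EuMyc, 219, 192 and 191 in Max KO and 116, 106 and 109 in WT. Every library without Max lay above every library with Max, and every EuMyc library lay below every WT library. In EuMyc against WT it fell by 1.06 on the log2 scale (SE 0.106; edgeR adjusted p = 1.52e-06). In EuMyc Max KO against EuMyc it rose by 2.03 (SE 0.108; edgeR adjusted p = 6.29e-09), a fold of 4.09, and in Max KO against WT by 0.86 (SE 0.104; edgeR adjusted p = 0.00036), a fold of 1.82. The change without Max was thus larger with the transgene than without it, by 1.17 log2 units (SE 0.147; edgeR adjusted p for the interaction = 2.98e-05). EuMyc Max KO and Max KO cells were not told apart (0.11, SE 0.102; edgeR adjusted p = 0.49). The 4 called results kept their calls when any 1 library was left out.

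Ccnd3 (chr17:47505051-47599691, plus strand) was read at 158, 114 and 69.9 CPM in EuMyc Max KO, 234, 326 and 265 in EuMyc, 45.2, 55.0 and 54.7 in Max KO and 75.8, 65.1 and 63.0 in WT. The 3 EuMyc libraries lay above all others, and the EuMyc Max KO libraries were spread more widely than any other group, with an SD of 38.7% of the mean. It rose by 2.02 in EuMyc against WT (SE 0.258; edgeR adjusted p = 5.48e-05), a fold of 4.05, and fell by 1.27 in EuMyc Max KO against EuMyc (SE 0.251; edgeR adjusted p = 0.00111). Without Max the transgenic cells were still higher, by 1.14 in EuMyc Max KO against Max KO (SE 0.257; edgeR adjusted p = 0.0174). That call was lost without Max KO replicate 1, Max KO replicate 3 or EuMyc Max KO replicate 2, with edgeR adjusted p = 0.071, 0.0558 and 0.0514 in that order. In Max KO against WT all 3 libraries were below all 3, as for 38.1% of all genes in either direction, and the difference of -0.40 (SE 0.257) did not pass (edgeR adjusted p = 0.336), although it did when those 6 libraries were fitted alone (-0.38; edgeR adjusted p = 0.0122). The interaction of -0.88 (SE 0.358) did not pass (edgeR adjusted p = 0.0614), but passed without EuMyc Max KO replicate 1 (-1.19; edgeR adjusted p = 0.00758) or replicate 3 (-0.62; edgeR adjusted p = 0.0445). DESeq2 called it on all 12 libraries (-0.85; DESeq2 adjusted p = 0.0143).

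Ccnd1 (chr7:144929931-144939925, minus strand) was read at 20.6, 22.8 and 12 CPM in EuMyc Max KO, 32.2, 41.9 and 41.5 in EuMyc, 16.1, 15.9 and 11.4 in Max KO and 14.2, 8.64 and 10.1 in WT. The EuMyc libraries stood above the rest, and the other groups overlapped. It rose by 1.81 in EuMyc against WT (SE 0.255; edgeR adjusted p = 6.04e-05) and fell by 1.06 in EuMyc Max KO against EuMyc (SE 0.246; edgeR adjusted p = 0.00231). It differed by 0.40 in Max KO against WT (SE 0.258; edgeR adjusted p = 0.327). The change without Max differed between transgenic and other cells by -1.46 (SE 0.356; edgeR adjusted p for the interaction = 0.00484).

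The make-up of the D cyclins was read per length. Per kb of exon, the D cyclins together came to 40.0 ± 6.18 CPM per kb in EuMyc Max KO, 45.2 ± 5.6 in EuMyc, 30.3 ± 1.49 in Max KO and 21.8 ± 1.91 in WT (SD, n = 3 each). Ccnd2 made up 51.1%, 56.3% and 68.6% of it in EuMyc Max KO, against 14.9%, 8.96% and 14.3% in EuMyc. It made up 73.1%, 67.9% and 70.1% in Max KO, against 51.4%, 54.8% and 55.5% in WT. Ccnd3 took 39.4%, 31.8% and 23.8% in EuMyc Max KO, against 67.8%, 73.4% and 66.3% in EuMyc, and 16.2%, 20.9% and 21.5% in Max KO, against 36.0%, 36.2% and 34.3% in WT. With lengths of all exons, Ccnd3 was thus the leading D cyclin in the EuMyc libraries and Ccnd2 in the remaining ones. Neither share overlapped in EuMyc Max KO against EuMyc, in EuMyc against WT or in Max KO against WT. The exact two-sided permutation test of 3 libraries against 3 gave p = 0.1 for each, the smallest it allows, and 0.156 after Benjamini-Hochberg adjustment over the 25 share comparisons made. The shares depend on the length given to a gene: with the longest transcript in place of all exons, Ccnd2 averaged 51.1% in EuMyc Max KO, 9.52% in EuMyc, 64.7% in Max KO and 46.0% in WT, where Ccnd3 then averaged 46.3%.

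**Figure D2:**
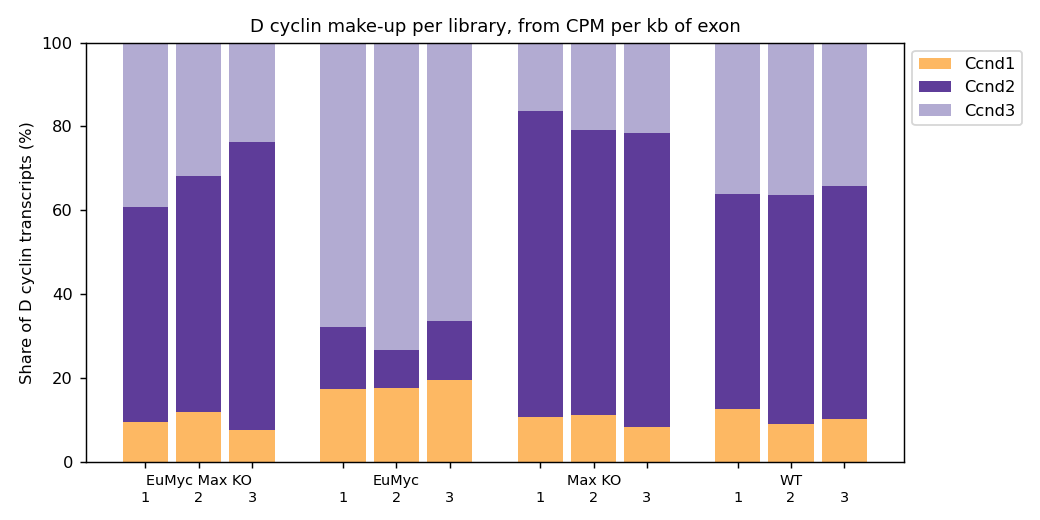
Share of each D cyclin in the summed D cyclin level (vertical axis, %, from CPM per kb of exon), 1 bar per library in the 4 genotypes. Ccnd2 is 8.96% to 14.9% in EuMyc and at least 51.1% in every other library.

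Of the D cyclin kinases, Cdk4 (chr10:127063534-127067920, plus strand) had an SD of 2.55% to 6.84% of the mean within groups. It was read at 125, 121 and 119 CPM in EuMyc Max KO, 382, 438 and 412 in EuMyc, 91.6, 97.3 and 91.8 in Max KO and 116, 110.1 and 115 in WT. The EuMyc libraries were above all others, and each EuMyc Max KO library was slightly above each WT library. It rose by 1.85 in EuMyc against WT (SE 0.0589; edgeR adjusted p = 2.05e-10), a fold of 3.61, and fell by 1.75 in EuMyc Max KO against EuMyc (SE 0.0586; edgeR adjusted p = 2.91e-10), a fold of 3.37. EuMyc Max KO differed from WT by 0.10 (SE 0.0577; edgeR adjusted p = 0.217). Max KO cells had less than WT, by -0.28 (SE 0.0581; edgeR adjusted p = 0.00854), and EuMyc Max KO cells had more than Max KO, by 0.38 (SE 0.058; edgeR adjusted p = 0.00117). The interaction was -1.47 (SE 0.0818; edgeR adjusted p = 7.05e-08).

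Cdk6 (chr5:3341485-3531008, plus strand), the other kinase of the D cyclins, was read at 11.3, 16.0 and 20.5 CPM in EuMyc Max KO, 20.9, 19.7 and 18.6 in EuMyc, 15.8, 18.3 and 14.8 in Max KO and 10.1, 11.5 and 14.7 in WT. The EuMyc libraries lay above the WT and Max KO libraries and overlapped EuMyc Max KO. It rose by 0.71 in EuMyc against WT (SE 0.194; edgeR adjusted p = 0.00541), the smallest change of the 8 in that comparison. In EuMyc Max KO against EuMyc the difference of -0.31 (SE 0.191) did not pass (edgeR adjusted p = 0.154), although it did without EuMyc Max KO replicate 3 (-0.54; edgeR adjusted p = 0.0123). The interaction of -0.74 (SE 0.273; edgeR adjusted p = 0.0344) was lost under 2 other scalings and when any of 8 of the 12 libraries was left out, with edgeR adjusted p up to 0.0832. The 8 are WT replicates 1 and 2, Max KO replicates 1 and 2, EuMyc replicates 1 and 2, and EuMyc Max KO replicates 1 and 2. Per kb of exon Cdk6 made up 2.95% ± 0.900 of Cdk4 plus Cdk6 in EuMyc Max KO, 1.11% ± 0.127 in EuMyc, 3.89% ± 0.295 in Max KO and 2.41% ± 0.455 in WT (SD, n = 3 each). Cdk4 was therefore the main D cyclin kinase by transcript in every library.

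The E cyclins gave the largest increases of the 8 genes in EuMyc against WT, and they kept part of them without Max. Ccne1 (chr7:38097984-38107534, minus strand) was read at 50.7, 36.2 and 26 CPM in EuMyc Max KO, 62.7, 65.2 and 57.2 in EuMyc, 13.8, 10.9 and 12.1 in Max KO and 10.5, 10.9 and 11.9 in WT. EuMyc was highest, EuMyc Max KO stood between, and Max KO and WT overlapped at the bottom. It rose by 2.48 in EuMyc against WT (SE 0.201; edgeR adjusted p = 4.52e-07), a fold of 5.57, and fell by 0.71 in EuMyc Max KO against EuMyc (SE 0.185; edgeR adjusted p = 0.00446). It stayed 1.61 above Max KO in EuMyc Max KO (SE 0.198; edgeR adjusted p = 0.000583), a fold of 3.06. The interaction was -0.86 (SE 0.276; edgeR adjusted p = 0.0199), and was lost without Max KO replicate 1 (-0.77; edgeR adjusted p = 0.0526).

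Ccne2 (chr4:11191351-11204779, plus strand) was read at 22.9, 18.7 and 10.6 CPM in EuMyc Max KO, 40.8, 42.8 and 36.6 in EuMyc, 5.36, 4.22 and 5.31 in Max KO and 2.98, 2.22 and 2.68 in WT. The 4 groups did not overlap one another, in the order EuMyc, EuMyc Max KO, Max KO and WT. It rose by 3.93 in EuMyc against WT (SE 0.258; edgeR adjusted p = 4.57e-08), a fold of 15.2, and fell by 1.20 in EuMyc Max KO against EuMyc (SE 0.218; edgeR adjusted p = 0.000317). EuMyc Max KO exceeded Max KO by 1.8 (SE 0.239; edgeR adjusted p = 0.00065), a fold of 3.49. In Max KO against WT it rose by 0.92 (SE 0.268; edgeR adjusted p = 0.04), on 66 to 95 reads against 39 to 52. That call was lost when any 1 of the WT or Max KO libraries, EuMyc replicate 1 or EuMyc Max KO replicate 2 was left out, with a log2 fold change of 0.81 to 1.02 and an edgeR adjusted p of up to 0.123. The interaction was -2.13 (SE 0.345; edgeR adjusted p = 0.000251), the largest of the 8 in size. Per kb of exon Ccne2 made up 25.8% ± 2.30 of the E cyclins in EuMyc Max KO, 33.1% ± 0.303 in EuMyc, 23.6% ± 1.37 in Max KO and 15.3% ± 2.23 in WT (SD, n = 3 each), so Ccne1 was the main E cyclin in all groups.

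Cdk2 (chr10:128697939-128705031, minus strand), the partner of the E cyclins, was read at 82.9, 72.3 and 67.9 CPM in EuMyc Max KO, 149.7, 151 and 158 in EuMyc, 56.4, 60.4 and 61.5 in Max KO and 77.4, 82.5 and 77.9 in WT. EuMyc was highest, Max KO lowest, and EuMyc Max KO overlapped WT. It rose by 0.95 in EuMyc against WT (SE 0.0709; edgeR adjusted p = 7.46e-08) and fell by 1.04 in EuMyc Max KO against EuMyc (SE 0.071; edgeR adjusted p = 3.72e-08). In Max KO against WT it fell by 0.42 (SE 0.0717; edgeR adjusted p = 0.00324). EuMyc Max KO exceeded Max KO by 0.32 (SE 0.0716; edgeR adjusted p = 0.0101), a call lost without Max KO replicate 1 (0.29; edgeR adjusted p = 0.0508). The interaction was -0.62 (SE 0.1; edgeR adjusted p = 0.000183).

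**Figure D3:**
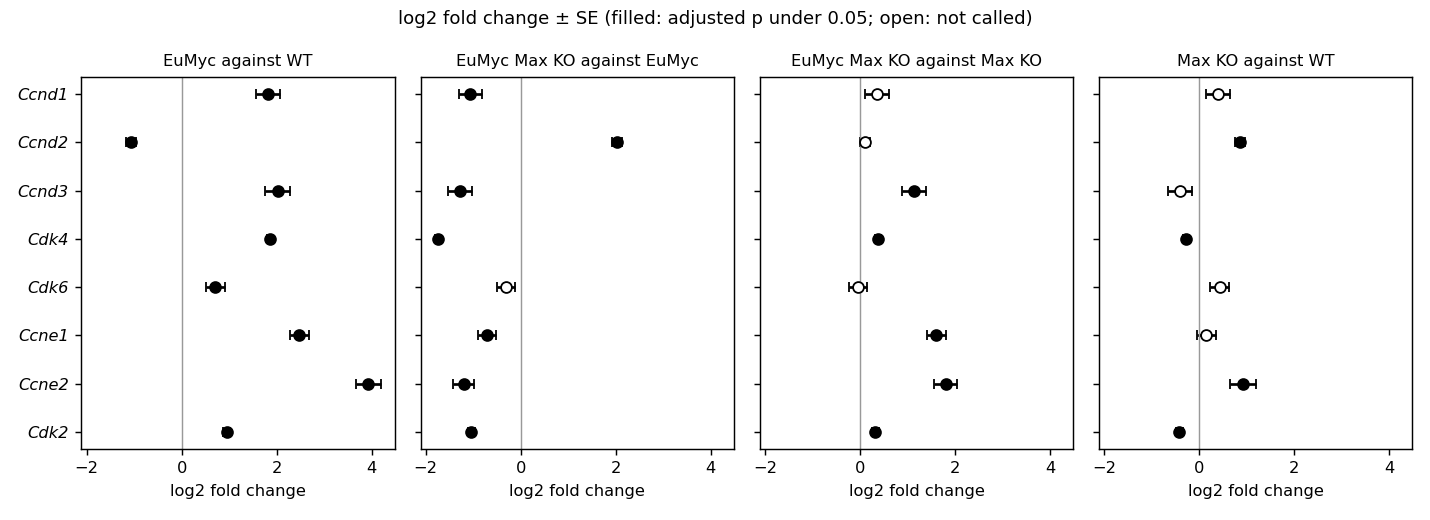
The log2 fold change of each gene (horizontal axes, ± SE) in 4 comparisons, with filled points for an adjusted p under 0.05. Ccnd2 is at -1.06 in EuMyc against WT and at 2.03 in EuMyc Max KO against EuMyc, on the other side of 0 from the remaining 7 in both.

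The groups were also put in order of mean level. EuMyc was highest for 7 of the 8 genes, and its lead over the next group was called for 6 of them. The exception was Cdk6, whose difference between EuMyc and Max KO did not pass (edgeR adjusted p = 0.204). The share of all genes with such a lead is not given here. Of all genes, 36.7% were called higher in EuMyc against WT and 36.1% lower in EuMyc Max KO against EuMyc. For Ccne1 the order was EuMyc, EuMyc Max KO and then Max KO and WT, which were not told apart (edgeR adjusted p = 0.667). Cdk2 was ordered EuMyc, then WT and EuMyc Max KO, not told apart (edgeR adjusted p = 0.366), then Max KO. For Cdk6 the differences between neighbours did not pass (edgeR adjusted p = 0.153 to 0.921).

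EuMyc Max KO was also set against Max KO and WT directly. Against Max KO, 5 of the 8 genes were called higher (Ccnd3, Cdk4, Ccne1, Ccne2 and Cdk2), with 14.4% of all genes called, 10.7% higher and 3.69% lower. With upper-quartile scaling those calls split into 1215 higher and 695 lower, against 1378 and 475. That count was 3 when only those 6 libraries were fitted, with Ccnd3 and Cdk2 lost, and 3 without Max KO replicate 1. Over WT, 4 of the 8 were higher, with 27.8% of all genes called, 17.0% higher and 10.8% lower. They were Ccnd2 (0.98), Ccne1 (1.77), Ccne2 (2.72) and Ccnd1 (0.75, SE 0.256; edgeR adjusted p = 0.0496). The Ccnd1 call was lost in 10 of the 12 fits that left out a library, with edgeR adjusted p up to 0.169, and it held only without WT replicate 1 or EuMyc Max KO replicate 3. Ccnd3 differed from WT by 0.74 (edgeR adjusted p = 0.0543) and was called without EuMyc Max KO replicate 3 (a log2 fold change of 1; edgeR adjusted p = 0.00149). It was also called by DESeq2 (0.74; DESeq2 adjusted p = 0.00493) and with library totals as scaling (0.76; edgeR adjusted p = 0.0436). Cdk6 differed by 0.39 (edgeR adjusted p = 0.153) and was called without EuMyc Max KO replicate 1 (0.59; edgeR adjusted p = 0.0244).

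Within EuMyc Max KO the 3 mice differed from each other in a way that ran through several of the genes. Ccnd3, Ccne1, Ccne2 and Cdk2 were all highest in replicate 1 and lowest in replicate 3, and Cdk6 had the reverse order. Cdk4 was in the same order as Ccnd3, over a narrow range (125, 121 and 119 CPM). Over all genes too, these mice differed more from each other than mice within any other group did. The share of all genes in this order is not given here. The 5 proliferation markers (Mki67, Top2a, Pcna, Mcm2 and Ccna2) summed to 2440.5, 1825 and 884 CPM in the same 3 libraries, and the erythroid markers to 5199, 3480.1 and 915 CPM. The monocyte and macrophage markers summed to 2397, 1785 and 1343 CPM there, and the neutrophil markers to 119, 107 and 10.6 CPM. T cell, NK cell and plasmacytoid dendritic markers were likewise highest in replicate 1 and lowest in replicate 3. B lineage markers had the reverse order, at 6445, 6884 and 7912 CPM, as had mature B and plasma cell markers. The proliferation sum was 4521 to 5139 CPM in EuMyc, 262 to 298 in Max KO and 466 to 505 in WT. Ccnd2 at 216 to 219.8 CPM and Cdk4 at 119 to 125 CPM were nearly constant over the same libraries. A fit added after the data were seen kept replicate 3 alone in EuMyc Max KO and assumes this mouse to vary like the other groups. Its log2 differences from EuMyc were -1.26 for Ccne1, -1.94 for Ccne2, -1.99 for Ccnd3 and -1.8 for Cdk4. They were -1.69 for Ccnd1, -1.18 for Cdk2, 2.01 for Ccnd2 and 0.04 for Cdk6. Against Max KO that fit gave 0.34 for Cdk4, 1.08 for Ccne1, 1.08 for Ccne2, 0.43 for Ccnd3 and 0.19 for Cdk2. With all libraries these genes were at 0.38, 1.61, 1.8, 1.14 and 0.32, in that order. The part of dividing cells, or of any of these other cells, in the levels was not tested.

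**Figure D4:**
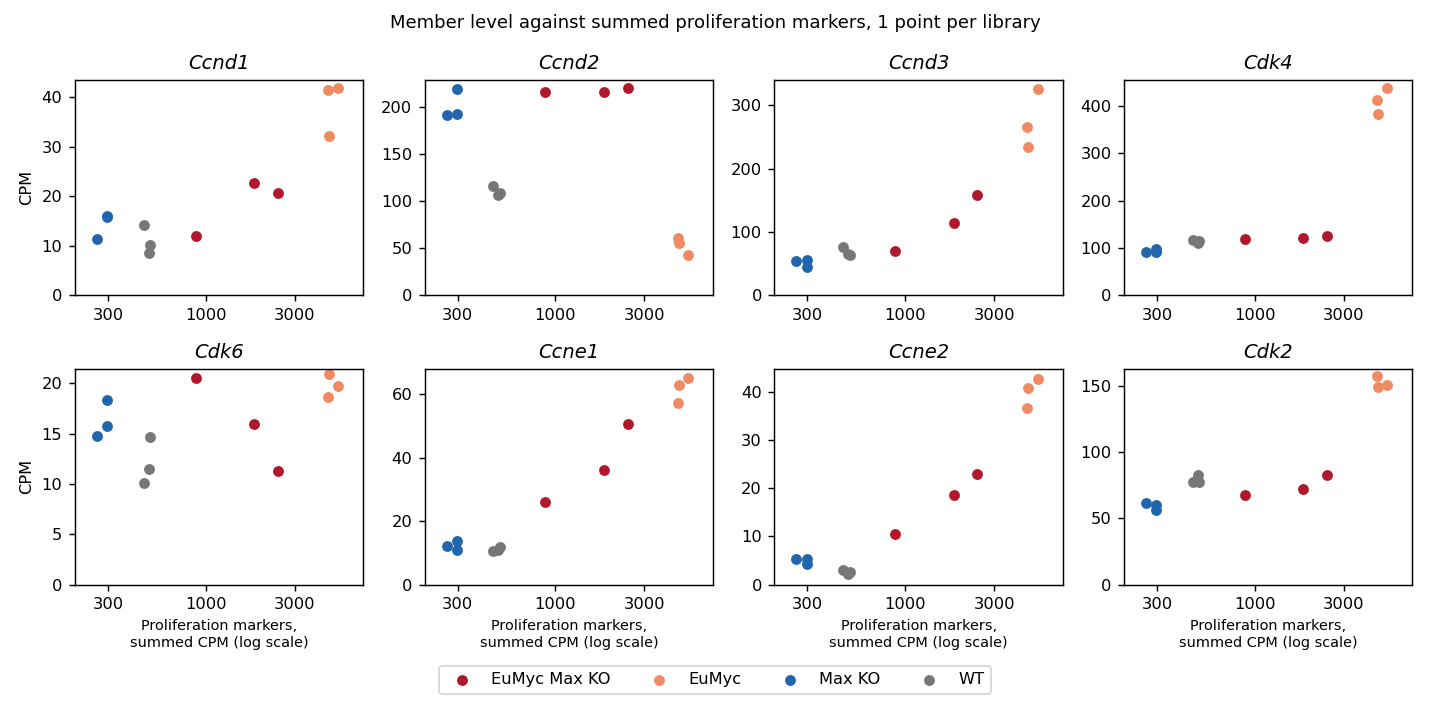
Level of each gene in CPM (vertical axes) against the summed CPM of 5 proliferation markers (horizontal axes, log scale), 1 point per library. In EuMyc Max KO the E cyclins and Ccnd3 run with the marker sum of 884 to 2440.5 CPM, while Cdk4 and Ccnd2 stay level.

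The 8 genes were also compared by the shape of their profile, as the root mean square difference between log2 CPM values centred on each gene's mean over the 12 libraries. Cdk4 was closest to Erh (0.0531 log2 units), to Tpi1, a glycolytic enzyme (0.0546), and to Ptma (0.0623), against a median of 0.905 over all other genes. Cdk2 was closest to Raly (0.0879), to Psmd13 of the proteasome (0.0883) and to Eif2s2, a translation initiation factor subunit (0.0886). Ccnd3 was closest to Cdc25b, a phosphatase that activates CDKs (0.143), to Fbxo5, an inhibitor of the anaphase promoting complex (0.151), and to Fen1, a nuclease of lagging strand synthesis (0.165). Ccne2 was closest to Neurl1b (0.324), Myc (0.349) and Fabp5 (0.379), against a median of 1.55 over all other genes. These distances are not scaled to a gene's range over the 12 libraries, which was 4.21 log2 units for Ccne2 and 2.26 for Cdk4. Ccne1 was closest to Ssx2ip (0.177), Zfpm1 (0.206) and Slc43a3 (0.249).

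Ccnd2 was closest to Cacna1d, a calcium channel gene (0.164), Gpr157 (0.171) and Pirb, an inhibitory receptor (0.172). Ccnd1 was closest to Haus4 (0.22), Idh2 (0.222) and Ucp2 (0.227), and Cdk6 to Fitm2 (0.163), Rsad1 (0.17) and Msi2 (0.172). Among the 8 genes themselves the closest pairs were Cdk4 with Cdk2 and Cdk4 with Ccnd3, at 0.359 each, and the farthest was Ccnd2 with Ccne2, at 2.04. Ccnd2 was at least 0.987 from each of the others.

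Other genes of the G1 pathway were read from lists. Of 8 genes that activate CDKs or set their phosphorylation, all 8 rose in EuMyc against WT (median 1.48) and all 8 fell in EuMyc Max KO against EuMyc (median -1.06), beside 36.7% of all genes higher in the one comparison and 36.1% lower in the other. They included Wee1, an inhibitory kinase (2.41 and -1.17), Cdc25a, the phosphatase that opposes it (1.79 and -1.33), and Ccnh and Mnat1 of the CDK activating kinase (1.12 and 1.06, then -0.99 and -0.84). In Max KO against WT, Wee1 (0.70) and Pkmyt1 (0.59) rose and Cdc25c fell by 1.60, 3 of 8 called beside 15.0% of all genes. Of 3 genes that fold CDK4 and CDK6, Hsp90aa1 rose by 1.70, Hsp90ab1 by 1.28 and Cdc37, the kinase-specific cochaperone, by 0.88 in EuMyc against WT, and all 3 fell in EuMyc Max KO against EuMyc (median -1.20).

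Of 13 RB and E2F genes, 10 rose and 1 fell in EuMyc against WT (median 1.44), and 9 fell and 2 rose in EuMyc Max KO against EuMyc (median -0.98). Of all genes, 36.7% were higher and 34.9% lower in the one comparison, and 36.1% lower and 37.6% higher in the other. Tfdp1, the dimer partner of E2F factors, rose by 2.87 and fell by 2.09. Rbl1, an RB relative, rose by 1.44 and fell by 1.13, and E2f6, a repressor of the family, rose by 1.19 and fell by 0.76. The 1 gene that fell in EuMyc against WT was Rbl2, an RB relative of resting cells (-0.84, then 0.64), named here after its values were seen. The median of the list was -0.08 in Max KO against WT.

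Of 7 genes for inhibitors of these kinases 6 passed the filter, the exception being Cdkn2b, and 4 rose and 1 fell in EuMyc against WT (median 2.65). Cdkn2c, which binds CDK4 and CDK6, was at 36.0 ± 16.6 CPM in EuMyc Max KO, 84.3 ± 11.3 in EuMyc, 12.9 ± 2.09 in Max KO and 12.1 ± 0.403 in WT (SD, n = 3 each). Cdkn2a rose by 5.46 in EuMyc against WT, on few reads in WT (7.91 ± 1.57 CPM in EuMyc and 0.173 ± 0.114 CPM in WT), Cdkn1c by 3.55 and Cdkn1a by 2.49. Cdkn1b, encoding p27, which holds CDK2 inactive in resting cells, fell by 0.48 in EuMyc against WT and rose by 0.33 in EuMyc Max KO against EuMyc. Of the 6, 3 fell and 1 rose in EuMyc Max KO against EuMyc. The 5 called in EuMyc against WT and the 4 called here stand beside 71.6% and 73.7% of all genes.

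Of 11 genes for the turnover of G1 cyclins and p27, 6 rose and 3 fell in EuMyc against WT (median 0.19), and 6 fell and 3 rose in EuMyc Max KO against EuMyc (median -0.19). The 9 of 11 called in each stand beside 71.6% and 73.7% of all genes called. Cks1b and Skp2, which together mark p27 for destruction, rose by 3.42 and 2.53, and Fbxo4, assigned to D cyclin turnover, fell by 1.48. Cks1b fell by 0.92, Rbx1 by 0.33 and Cul3 by 0.21 in Max KO against WT, where 7.74% of all genes were lower. Of 6 later cyclin and Cdk1 genes, 5 passed the filter and all 5 rose in EuMyc against WT (median 3.92) and fell in EuMyc Max KO against EuMyc (median -1.63), and Ccna1, a germline cyclin, had no read in any group. Of all genes, 36.7% were higher in EuMyc against WT and 36.1% lower in EuMyc Max KO against EuMyc. In EuMyc Max KO all 5 stayed above Max KO (median 3.44) and above WT (median 2.19), with 10.7% and 17.0% of all genes higher in those comparisons. In Max KO against WT the median of the 5 was -1.26, and 1 of them was called lower, beside 7.74% of all genes. Ccna2 is also one of the 5 proliferation markers above.

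Of 17 genes upstream of the D cyclins in B cells, 5 rose and 10 fell in EuMyc against WT (median -0.39), where 36.7% of all genes were higher and 34.9% lower. In EuMyc Max KO against EuMyc, 9 rose and 5 fell (median 0.34), where 37.6% of all genes were higher and 36.1% lower. Bcl6, a transcriptional repressor expressed in germinal centre B cells, fell by 3.57 in EuMyc against WT. It rose by 3.03 in EuMyc Max KO against EuMyc, so both directions were those of Ccnd2. Nfkb1 fell by 1.20 and rose by 1.03, and Myb, a factor of early B cells, rose by 3.28 and fell by 2.54. Only Akt2 of the 17 was called in Max KO against WT (0.24), where 15.0% of all genes were called.

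**Figure D5:**
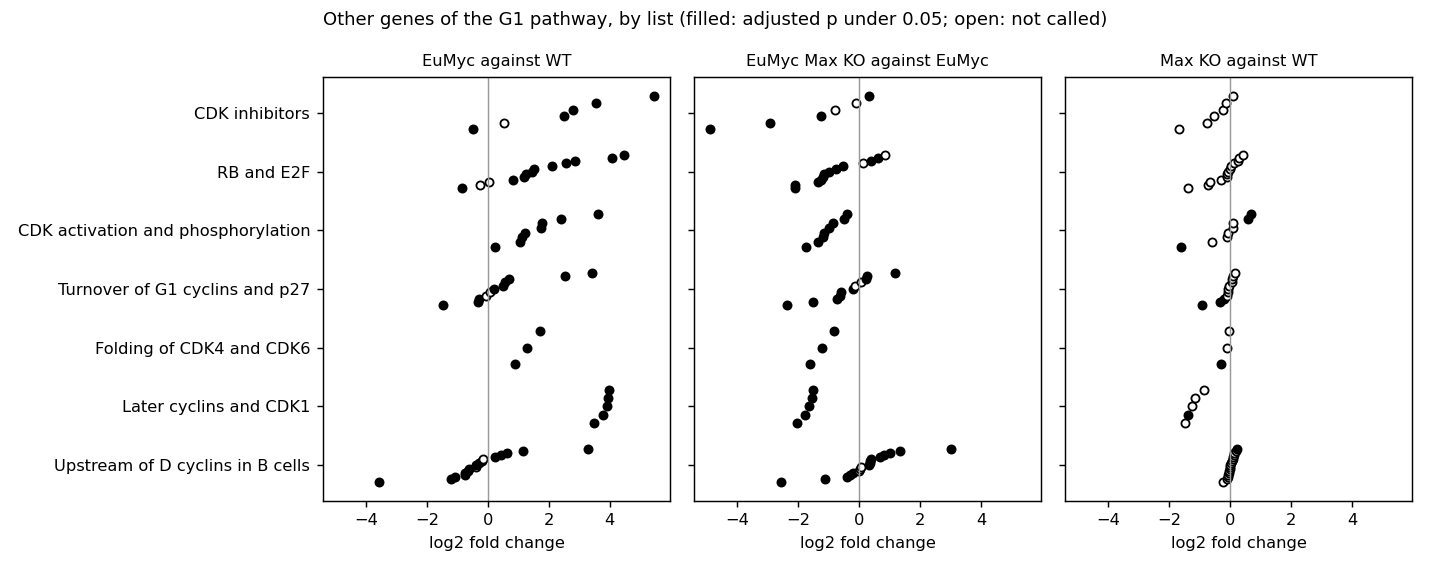
The log2 fold change (horizontal axes) of the tested genes of 7 G1 pathway lists in 3 comparisons, 1 point per gene, filled for an adjusted p under 0.05. The 5 later cyclin and Cdk1 genes lie together near 3.92 in EuMyc against WT. Most points of Max KO against WT are open, and the later cyclin and Cdk1 genes have a median of -1.26 there.

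Several of the 8 genes overlap a gene on the opposite strand in the mm10 annotation (GENCODE vM21), and the strand setting of the counting was not given in the sources used here. Exon bases are shared between Ccnd1 and LTO1 (1100), Cdk4 and Tspan31 (641), Ccne2 and Ints8 (609), Ccnd3 and Bysl (361) and Cdk2 and Pmel (34). Ccnd2 and Cdk6 overlap antisense transcripts. Reads from such stretches could have been dropped or given to either gene, and their part in the levels was not tested.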

How the data were processed

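RNA of B220+ splenocytes was sequenced from 12 mice. The deposited files hold counts of reads per gene, 1 file per mouse. Per the submitters' processing notes, bcl2fastq 1.8.4, TopHat2 2.1.0 and HTSeq 0.6.1 were used with mm10. The gene annotation and strand setting were not given in the sources used here. Of the deposited counts, 5 summary rows naming no gene were left out (no feature 12.5% to 20.3%, not unique 20.3% to 27.9%, ambiguous 0.748% to 1.45% per library).

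Groups followed the genotype labels. Genes were filtered with filterByExpr, scaled by TMM and tested with edgeR 4.0.16 (quasi-likelihood, all 12 libraries, 8 residual degrees of freedom, R 4.3.3, Benjamini-Hochberg adjustment over all 12878 genes, threshold 0.05). The common biological coefficient of variation was 13.7%. Counting intervals were not used, since replicate spread exceeded counting error. Lengths were unions of exons in GENCODE vM21, and promoters came from RefSeq. Shares were compared by exact permutation tests.

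The 8 genes, the gene lists and the tests were chosen with earlier results of these data known. Named beside the 8 were the 3 genes most alike to each, up to 3 called genes with the smallest p per list in EuMyc against WT and in Max KO against WT (all genes in lists of up to 8), Max, Myc and the markers. Some markers are not reported here and were left out of the sums. Alternatives were other scalings, no filter, DESeq2 1.42.0, only the 6 libraries compared, a replicate block, leaving out each library, and the longest transcript as length.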

Additional observations from a re-analysis of the deposited data

Results flagged for a closer look

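For 7 of the 8 genes, the change that went with the loss of Max differed between mice with and without the transgene, by the interaction term of edgeR's model. Its log2 value was -1.46 for Ccnd1 (edgeR adjusted p = 0.00484), 1.17 for Ccnd2 (edgeR adjusted p = 2.98e-05) and -1.47 for Cdk4 (edgeR adjusted p = 7.05e-08). It was -0.74 for Cdk6 (edgeR adjusted p = 0.0344), -0.86 for Ccne1 (edgeR adjusted p = 0.0199), -2.13 for Ccne2 (edgeR adjusted p = 0.000251) and -0.62 for Cdk2 (edgeR adjusted p = 0.000183). The interaction was called for 55.7% of all genes tested. Leaving out 1 library gave 5 to 8 of the 8 genes called. The Cdk6 call was lost in 8 of these 12 fits, and the Ccne1 call without Max KO replicate 1. Ccnd3 was called in 2 of them.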

How the results depend on the processing

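No gene of the 8 changed direction under another scaling, without the filter, with DESeq2 or in the fit of the 6 libraries compared. Scaling by library totals moved the median log2 fold change of all genes to 0.15 in EuMyc Max KO against EuMyc, against 0.03. Leaving out 1 library gave 808 to 2563 genes called in Max KO against WT (1933 with all libraries), with 808 when WT replicate 1 and 1206 when WT replicate 3 was dropped, and 889 or 1060 when Max KO replicate 1 or 2 was. It gave 1057 to 2846 in EuMyc Max KO against Max KO (1853), moved by over 1.5 times without Max KO replicate 1 or 3 or any EuMyc Max KO replicate, with 3 to 5 of the 8 genes called (5, and 3 without Max KO replicate 1). It gave 2379 (without EuMyc Max KO replicate 1) to 4236 in EuMyc Max KO against WT (3581). With only the 6 libraries compared, EuMyc Max KO against Max KO gave 851 genes and 3 of the 8. An alternative added after the data were seen left EuMyc Max KO with replicate 3 alone, assumed to vary like the other groups. It gave 569 genes and 3 of the 8 over Max KO, and 932 genes against WT. There Ccnd1 was at -0.27 and Cdk6 at 0.32 against Max KO, and Cdk6 at 0.04 against EuMyc. Leaving out 1 library put Cdk6 at -0.26 to 0.16 in EuMyc Max KO against Max KO. The cause was not tested. Shares depended on the gene length: with the longest transcript the Ccnd1 share differed by 0.242 percentage points in Max KO against WT (-0.456 with all exons), by 3.81 in EuMyc against WT (7.52) and by -4.35 in EuMyc Max KO against EuMyc (-8.41). The Ccnd2 share then differed by -36.5 in EuMyc against WT (-41.2) and the Ccnd3 share by -18.9 in Max KO against WT (-16.0). Leaving out 1 library, the Ccnd1 share differed by -1.27 to 0.542 points in Max KO against WT, by -1.53 to 0.6 in EuMyc Max KO against Max KO and by -1.99 to 0.143 in EuMyc Max KO against WT. In EuMyc Max KO against WT the Ccnd2 share differed by -0.251 to 8.52 and the Ccnd3 share by -7.69 to 0.108.

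Nothing in the labels says that mice of equal replicate number belong together. Of 18 same-numbered pairs, 4 had deviations correlated over 0.1 (-0.117 to 0.344). While 0 libraries were most alike to their own number in every other group, this check cannot show a link between a single pair of groups. Among the Max KO libraries, each WT library was most alike to that of its own number (0.179, 0.344 and 0.0951). With the replicate block 1738 genes were called in Max KO against WT and 9440 in EuMyc Max KO against EuMyc, and of the 8 genes only Ccnd1 in EuMyc Max KO against WT lost its call (0.73; edgeR adjusted p = 0.0553). Ccne2 in WT, at 39 to 52 reads, is where depth limits most among the 8.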
